A study of Macaca mulatta with 10 samples.

Results

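The 10 genes described here are markers of fat cells: ADIPOQ, FABP4, LPL, LEP, CIDEC, THRSP, PCK1, GPD1, SCD and ACACB. They were chosen by symbol from the 18622 gene rows of the deposited log2 table, and all 10 were found. The choice was made knowing that fat markers stood high in unstable animal 4, so that level is given as a description, with no test. The samples were lymph nodes from 10 male rhesus macaques, each hybridised to 1 Illumina bead array whose probes were designed for human genes. Of these animals, 5 lived under unstable social conditions, with age labels of 6.84, 6.72 and 6.7 for animals 1 to 3 and 5.62 and 5.61 for animals 4 and 5. The other 5 lived under stable social conditions, with age labels of 5.73 to 5.87. The unit of age is not stated, and the labels name neither the node sampled nor whether fat was trimmed from it.

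Unstable animals 1 to 3 and stable animal 5 shared slide 1, stable animals 1 to 4 slide 2, and unstable animals 4 and 5 slide 3. Median probe intensity was 104.5 to 118.6 per array, and the 10 arrays had 44.1% to 44.7% of genes above background. The limit for this was the most frequent log2 value plus 3 SDs of the values below it, 6.85 on the log2 scale. Lymph node markers were present on every array: CD79B, the B cell receptor chain, ranged from 11.84 to 12.68, CD3D, a chain of the T cell receptor complex, from 11.86 to 12.41, and the homing chemokine CCL21 from 12.13 to 13.42. Unstable animal 4 had 71 genes at least 1 log2 unit above the median of the others, out of 8940 genes that passed the limit on at least 3 arrays, where the other arrays had 6 to 36. Its mean correlation with the other arrays, 0.9769, was the lowest of the 10, whose highest was 0.9853.

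Lymph nodes lie embedded in fat, and a dissected node can carry some of it along. Fat cells take up fatty acids that LPL releases from circulating lipoproteins, make further fatty acids from acetyl-CoA, and store both as triglyceride in lipid droplets. They also secrete the hormones leptin and adiponectin. Several of these genes are active elsewhere too: FABP4 is also made by capillary endothelium and macrophages, and SCD by many cell types.

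The 10 genes did not behave as 1 measure of fat. In unstable animal 4, 5 of them (THRSP, ACACB, SCD, FABP4 and CIDEC) had their highest value of the 10 arrays, each at least 1 log2 unit above the median of the other 9. LEP had its lowest value there and LPL its second lowest. PCK1 and GPD1 were not well above background on any array, and ADIPOQ passed the limit by at most 0.13 log2 units. Over all 18622 genes, unstable animal 4 was highest for 10.7%, lowest for 12.1% and at least 1 log2 unit above the median of the others for 0.419%. A single lowest gene among 10, such as LEP, is near the share over all genes. The shares stand beside the count of 5 for scale only, since the level of this array chose the genes. Each of the 10 values came from 1 probe, and whether a human probe matches the macaque transcript well was not tested. In whole tissue, fewer fat cells and less RNA per fat cell cannot be told apart.

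**Figure D1:**
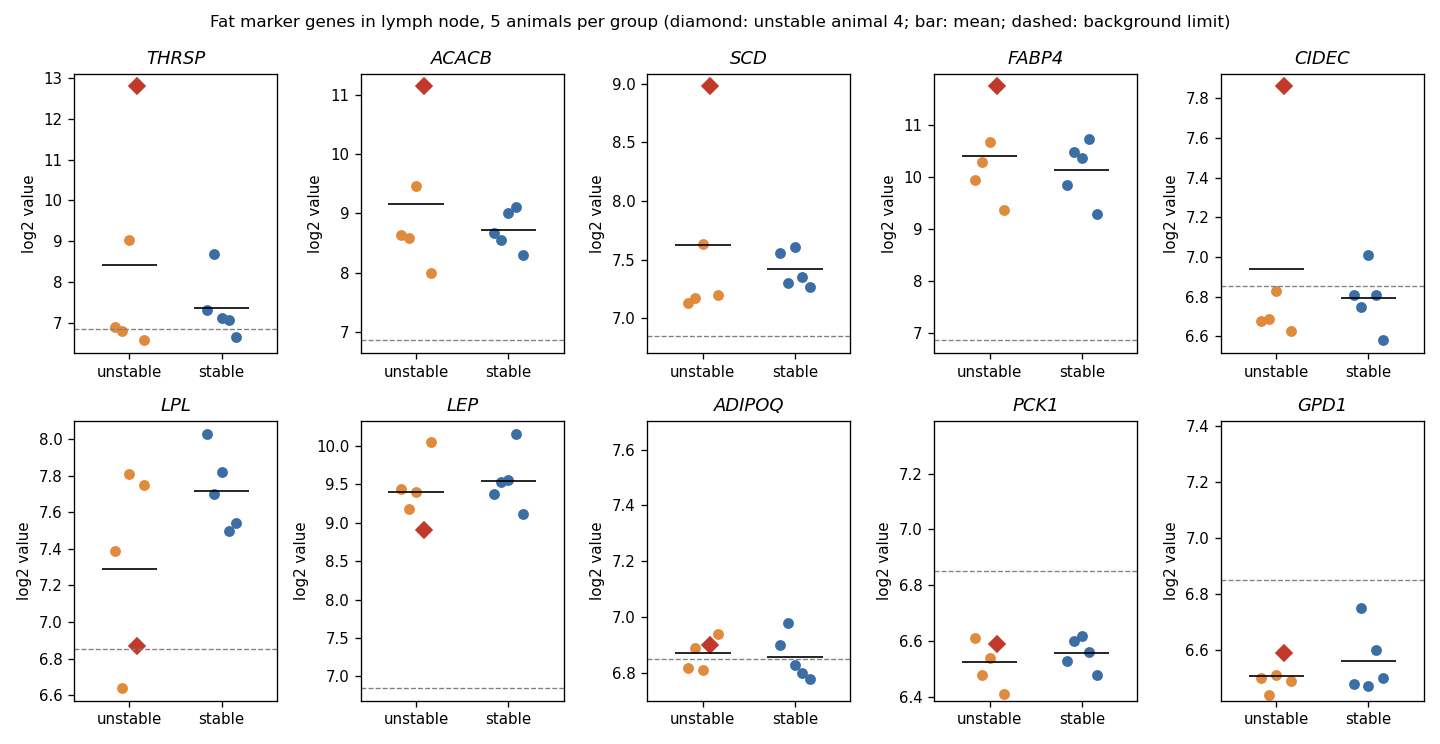
Log2 values of the 10 fat marker genes, 1 panel per gene, with the 5 unstable animals left and the 5 stable animals right of each panel. The diamond is unstable animal 4, the horizontal bar is the group mean, and the dashed line at 6.85 is the background limit. The diamond is the top point for THRSP, ACACB, SCD, FABP4 and CIDEC and the bottom point for LEP.

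The genes of fatty acid synthesis stood furthest apart. THRSP, a nuclear protein that raises the expression of lipogenic enzymes in fat and liver, had log2 values of 6.90, 6.80, 9.04, 12.79 and 6.58 in unstable animals 1 to 5, against 7.32, 8.70, 7.12, 7.08 and 6.67 in stable animals 1 to 5. Unstable animal 4 lay 5.71 log2 units above the median of the other 9, a ratio of 52.3. Unstable animal 3 and stable animal 2 came next, while unstable animal 5, from the same slide as animal 4, was the lowest of all. THRSP was above background on 7 arrays, and unstable animals 2 and 5 and stable animal 5 lay under the limit. The median of the other 9, 7.08, was itself near the limit, so the ratio is measured from a low level. Before normalization, the THRSP probe read 7020 intensity units in unstable animal 4, against 92.7 to 694 in the other unstable animals and 107 to 417 in the stable animals.

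ACACB, the acetyl-CoA carboxylase at the mitochondrial surface whose product restrains fatty acid oxidation, had values of 8.63, 8.58, 9.47, 11.15 and 8.00 in unstable animals 1 to 5, against 8.67, 8.55, 9.01, 9.11 and 8.30 in stable animals 1 to 5. The order at both ends was that of THRSP, with unstable animal 4 highest, unstable animal 3 second and unstable animal 5 lowest. The excess of unstable animal 4 over the median of the other 9 was 2.52. SCD, the desaturase that makes monounsaturated fatty acids, had 7.13, 7.17, 7.63, 8.98 and 7.20 in unstable animals 1 to 5, against 7.56, 7.30, 7.61, 7.35 and 7.27 in stable animals 1 to 5. Here too unstable animal 3 followed animal 4, but it differed from stable animal 3 by less than the SD of 0.194 over the other 9 arrays. The excess of unstable animal 4 was 1.68.

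The lipid carrier and droplet genes were also highest in unstable animal 4, by less. FABP4, which carries fatty acids in the cytoplasm, had 9.93, 10.28, 10.66, 11.74 and 9.36 in unstable animals 1 to 5, against 9.85, 10.47, 10.36, 10.72 and 9.28 in stable animals 1 to 5. It was far above background on every array, and its lowest values were those of stable animal 5 and unstable animal 5. The excess of unstable animal 4 was 1.46, where the SD over the other 9 arrays was 0.531. CIDEC, a lipid droplet protein that fuses droplets into larger ones, had 6.68, 6.69, 6.83, 7.86 and 6.63 in unstable animals 1 to 5, against 6.81, 6.75, 7.01, 6.81 and 6.58 in stable animals 1 to 5. It was above background in unstable animal 4 and stable animal 3 only. Its excess of 1.11 is therefore measured from a level that lay under the limit.

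Lipoprotein lipase and leptin lay below the median of the others in unstable animal 4. LPL, the enzyme that frees fatty acids from lipoproteins at the capillary wall, had 7.39, 6.64, 7.81, 6.87 and 7.75 in unstable animals 1 to 5, against 8.03, 7.70, 7.82, 7.50 and 7.54 in stable animals 1 to 5. Unstable animal 2 was below the limit of detection and unstable animal 4 only just above it, at -0.83 from the median of the other 9. LEP, the gene of leptin, had 9.44, 9.18, 9.40, 8.91 and 10.05 in unstable animals 1 to 5, against 9.37, 9.53, 9.56, 10.16 and 9.12 in stable animals 1 to 5. The pair of arrays from slide 3 stood near opposite ends, with unstable animal 4 lowest and unstable animal 5 second only to stable animal 4. The LEP value of unstable animal 4 was at -0.54 from the median of the other 9, with an SD of 0.356 over those arrays. These departures of unstable animal 4, up for 5 genes and down for LPL and LEP, kept their sign in all 4 ways of scaling the arrays, with THRSP at 5.60 to 6.72.

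The remaining genes gave little signal. ADIPOQ, the gene of adiponectin and a defining product of fat cells, ranged from 6.81 to 6.94 in unstable animals and from 6.78 to 6.98 in stable animals. It was above background on 5 arrays, and unstable animal 4 ranked 3 of 10 at 6.90. PCK1, which supplies glycerol backbone for triglyceride in fat cells, ranged from 6.41 to 6.61 in unstable and from 6.48 to 6.62 in stable animals. GPD1, which makes glycerol-3-phosphate, ranged from 6.44 to 6.59 in unstable and from 6.47 to 6.75 in stable animals. Neither was above background on any array, so no difference is given for them.

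**Figure D2:**
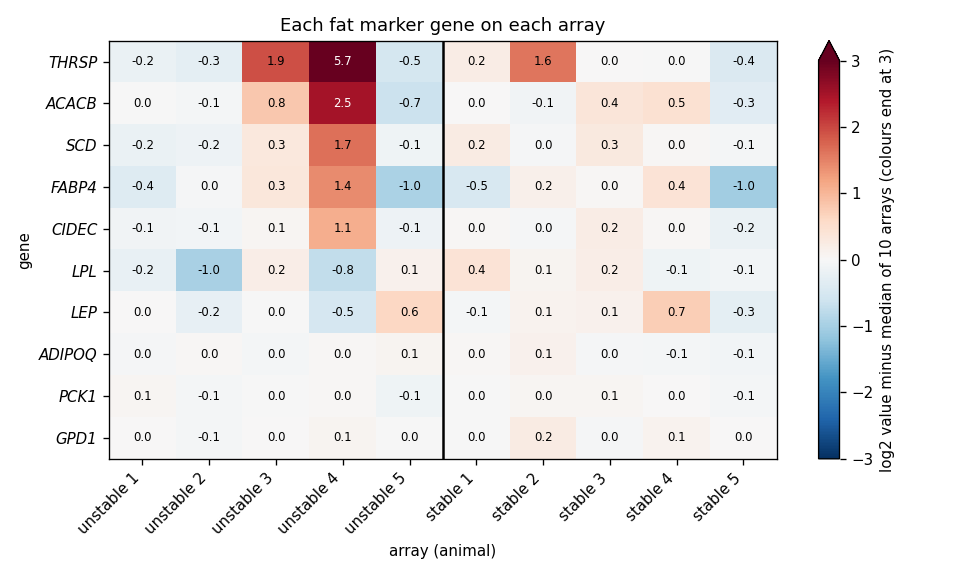
Each cell is the log2 value of 1 gene (rows) on 1 array (columns, unstable animals left of the black line) minus that gene's median over the 10 arrays, with colours ending at 3 log2 units. Unstable animal 4 stands out in the top 5 rows and unstable animal 3 and stable animal 2 in the THRSP row, while the LPL and LEP rows are low in unstable animal 4.

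The mean over the 10 genes was 7.60, 7.52, 8.07, 8.84 and 7.54 in unstable animals 1 to 5, against 7.75, 7.93, 7.84, 7.87 and 7.45 in stable animals 1 to 5. This mean follows THRSP more than any other gene, whose range over the arrays, 6.21 log2 units, was the widest. With Pearson's r over 10 arrays as a description, CIDEC, SCD, ACACB and FABP4 followed the mean at 0.94, 0.94, 0.95 and 0.90, while LPL and LEP stood at -0.23 and -0.34. Without unstable animal 4, over 9 arrays, these values were 0.72, 0.71, 0.80 and 0.80 for the first 4 and 0.48 and 0.24 for LPL and LEP. Each gene is itself part of the mean, and all points share their array.

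The study asks whether unstable and stable social conditions differ. With all 10 arrays, limma called 0 of 18622 genes at an adjusted p under 0.05, a share of 0.0%, while 956 genes (5.13%) had an unadjusted p under 0.05. Of the 10 genes, 0 were called and 0 had an unadjusted p under 0.05, and the groups overlapped for each of them, where 0.838% of all genes had groups that did not overlap. THRSP averaged 8.42 ± 2.637 in unstable and 7.38 ± 0.777 in stable animals (SD, n = 5 each), a difference of 1.04 (SE 1.074). The unstable animals without animal 4 had an SD of 1.149, and the median over 5 animals was 6.90 in unstable and 7.12 in stable animals. ACACB differed by 0.44 (SE 0.497), FABP4 by 0.26 (SE 0.415), SCD by 0.20 (SE 0.314) and CIDEC by 0.14 (SE 0.214), all smaller than their standard errors.

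Without unstable animal 4 none of these 5 genes had a higher mean in unstable animals, though with arrays scaled to their median FABP4, THRSP and ACACB differed by 0.05, 0.03 and 0.06. With slide as a block, a comparison that rests on stable animal 5, these 5 genes were all higher in unstable animals. The differences were 1.01 for FABP4, 0.91 for THRSP, 0.60 for ACACB, 0.15 for CIDEC and 0.04 for SCD. THRSP averaged 7.33 ± 1.149 in unstable (SD, n = 4) and 7.38 ± 0.777 in stable animals (SD, n = 5), a difference of -0.05 (SE 0.547, limma adjusted p = 1.0). ACACB averaged 8.67 ± 0.604 in unstable and 8.73 ± 0.334 in stable animals, and FABP4 10.06 ± 0.554 in unstable and 10.14 ± 0.575 in stable animals. SCD differed by -0.14 (SE 0.113) and CIDEC by -0.09 (SE 0.079). Over these 9 arrays limma again called 0 of 18622 genes (0.0%; 819 genes, 4.4%, had an unadjusted p under 0.05; 1 gene, ART3, was called with age as a covariate), and 0 of the 10 passed, each with a limma adjusted p of 1.0. The median difference over the 10 genes was 0.078 with all arrays and -0.067 without unstable animal 4, beside -0.002 over all genes with all arrays. This median includes PCK1 and GPD1, which were under background on every array, and ADIPOQ and CIDEC, which lay near the limit on most.

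LPL had the widest difference that did not hang on unstable animal 4. It averaged 7.29 ± 0.519 in unstable and 7.72 ± 0.219 in stable animals (SD, n = 5 each), a difference of -0.43 (SE 0.221), and without unstable animal 4 the difference was -0.32 (SE 0.223, limma adjusted p = 1.0). Unstable animals 3 and 5, at 7.81 and 7.75, lay within the stable range. With unstable animals 2 and 4 both left out the difference was -0.07. LEP averaged 9.40 ± 0.425 in unstable and 9.55 ± 0.385 in stable animals, and ADIPOQ 6.87 ± 0.057 in unstable and 6.86 ± 0.079 in stable animals (SD, n = 5 each).

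Slide 1 held 3 unstable animals and 1 stable animal. There the means of unstable animals lay above the value of stable animal 5 for FABP4 by 1.01, THRSP by 0.91 and ACACB by 0.60, with LPL at -0.26 and LEP at 0.22. Stable animal 5 had the lowest FABP4, THRSP and ACACB of the stable animals, so these values rest on it. Slide 1 did not hold unstable animal 4. For THRSP, stable animal 5 was under the background limit, as was unstable animal 5 on slide 3. On slide 3, which held no stable animal, unstable animal 4 exceeded unstable animal 5 by 6.21 for THRSP, 3.15 for ACACB, 2.38 for FABP4, 1.78 for SCD and 1.23 for CIDEC, and lay at -1.15 for LEP.

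**Figure D3:**
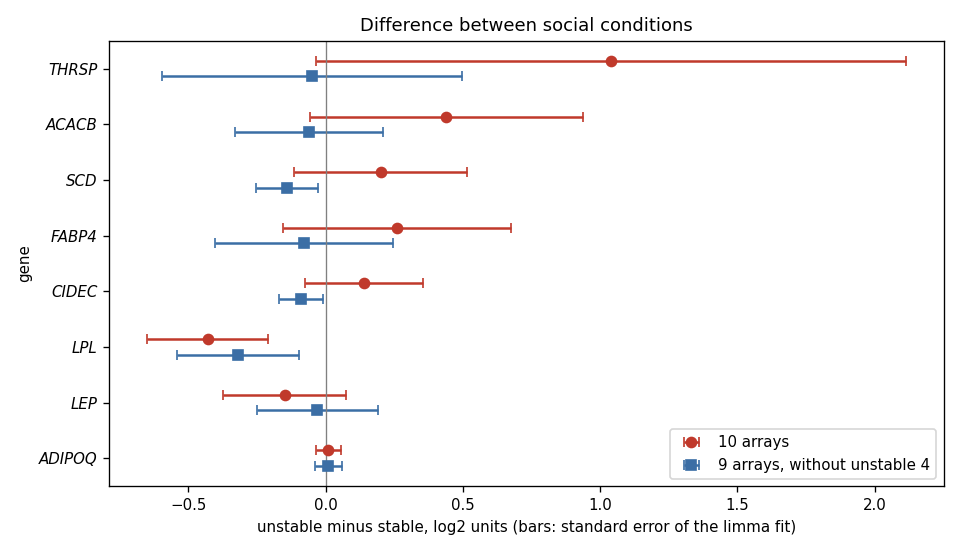
Difference in log2 value, unstable minus stable, for the 8 genes above background on at least 1 array, with the standard error of the limma fit as bars. Circles are all 10 arrays and squares the 9 arrays without unstable animal 4. For THRSP, ACACB, SCD, FABP4 and CIDEC the circle is right of 0 and the square left of it.

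Other genes of fat metabolism were read from lists chosen with earlier results of these arrays known, leaving out the 10 genes, and over genes that passed the background limit on at least 3 arrays. Of all such genes, unstable animal 4 was highest for 12.9% and at least 1 log2 unit above the median of the others for 0.794%. It was highest for 9 of 12 further adipocyte genes, with 5 at least 1 log2 unit above. CFD, 1 of those 9, passed the limit on 3 arrays, unstable animal 4 among them, so only that animal brought it into the count. CIDEA, a lipid droplet protein, stood at 8.74 in unstable animal 4, against 6.73 to 7.40 in the other 9 animals, and PNPLA2, the first lipase of stored triglyceride, at 8.79, against 6.90 to 7.44. LIPE, hormone-sensitive lipase, stood at 8.18 in unstable animal 4, against 6.85 to 7.25, and CD36, a fatty acid transporter that macrophages and capillaries also carry, at 8.92, against 7.25 to 8.32. These named genes have the largest excesses of the list, whose median was 0.64. At its other end were AOC3 at 0.12, PDE3B at 0.09, SLC2A4 at 0.01 and GPD1L at -0.47.

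Among 14 genes of fatty acid and triglyceride synthesis, unstable animal 4 was highest for 9. The median excess was 0.37, with FADS1 lowest at -0.20. DGAT2, which completes triglyceride, had an excess of 2.34 and fatty acid synthase, FASN, one of 2.32, with FASN at 11.09 in unstable animal 4, against 8.23 to 9.41 in the other 9. ACSS2, which activates acetate, had 1.29 and the phosphatase LPIN1 0.72. In uptake and lipolysis, a list that shares CD36, LIPE and PNPLA2 with the adipocyte list, 5 of 10 genes were highest in unstable animal 4, ABHD5, the activator of PNPLA2, among them with an excess of 0.68. The median excess of this list was 0.12, with ACSL3 lowest at -0.13. Genes of fatty acid oxidation were highest there in 9 of 9 cases, with a median excess of 1.25. ACADM, the medium-chain acyl-CoA dehydrogenase, had 1.87, ETFDH, which passes electrons from oxidation to the respiratory chain, 1.72, ECHS1 1.60 and ACAA2 1.29.

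The short brown fat list had 10 genes, of which 9 were measured. Of these, 4 passed the limit on at least 3 arrays, UCP1 and PRDM16 not among them. Unstable animal 4 was highest for those 4. They were CIDEA, which is also in the adipocyte list, the potassium channel KCNK3 (excess 1.73), the thyroid hormone activating deiodinase DIO2 (1.00) and COX7A1, a subunit of cytochrome c oxidase (0.69). KCNK3 had a median of 6.71 in the other 9, under the background limit. It passed the limit on 3 arrays, unstable animal 4 among them, so only that animal brought it into the count. Transcription factors of fat cells were mixed, with 2 of 9 highest there. PPARG, the nuclear receptor that drives fat cell differentiation, stood at 8.72 in unstable animal 4, against 7.36 to 8.08, and CEBPA at 9.33, against 8.54 to 9.27. CEBPB, at 11.09, lay inside the 10.17 to 11.47 of the others, and SREBF1, at 6.87, was near the limit. Of the receptors for leptin and adiponectin and their partners 2 of 7 were highest there. The leptin receptor LEPR was not among the 7 genes that passed the limit. ADIPOR2, an adiponectin receptor, had an excess of 0.56, the kinase STK11 0.35, ADIPOR1 0.28 and the leptin receptor kinase JAK2 0.15.

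The lists of other cells in unstable animal 4 lay mostly within the range of the other animals. The mean log2 value was 10.71 for B cell genes, against 10.40 to 11.12 in the other 9, 9.10 for T cell genes, against 8.95 to 9.59, and 9.73 for stroma and homing chemokines, against 9.46 to 10.02. It was 9.10 for endothelial genes, against 8.71 to 9.31, and 9.86 for macrophage genes, against 9.63 to 10.82. Muscle genes stood at 9.76, against 9.03 to 9.86. Their median excess over the 4 genes above background was 0.68, where that of the further adipocyte genes was 0.64, and the smooth muscle genes ACTA2 and MYH11 had excesses of 0.94 and 0.84. Fibroblast genes were above the range of the others at 9.02, against 8.41 to 8.91, with 3 of 10 genes highest in unstable animal 4. The part of muscle and fibroblast genes in the fat gene values was not tested. Nerve genes stood at 8.57, against 8.36 to 8.71, and erythroid genes at 9.45, against 8.84 to 9.83.

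Between the social conditions, limma called 0 genes higher and 0 lower in each of these 16 lists, with and without unstable animal 4. It called 0 of all 18622 genes (0.0%) in both fits, so these counts say nothing about the lists. Median differences were taken over all measured genes of a list, those under the background limit included. With all arrays the median was 0.128 over 15 fatty acid oxidation genes and 0.081 over 26 further adipocyte genes. It was 0.119 over 9 brown fat genes and 0.061 over 21 synthesis genes. Without unstable animal 4 these medians were -0.029, -0.006, -0.023 and -0.026.

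**Figure D4:**
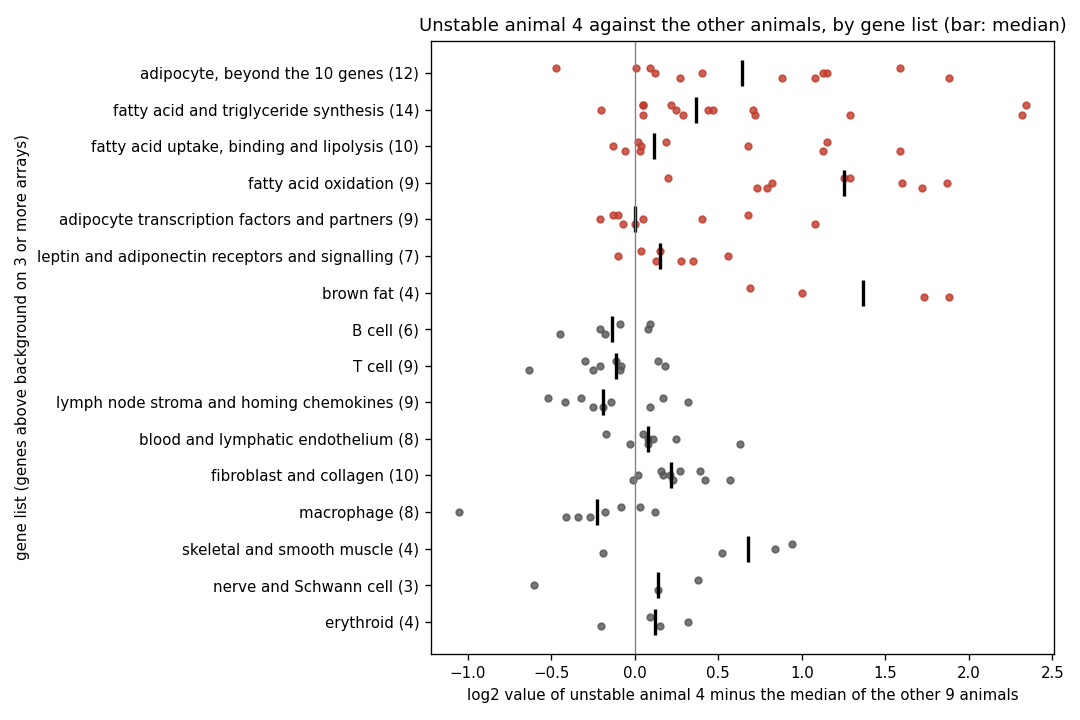
Each point is 1 gene, placed by the log2 value of unstable animal 4 minus the median of the other 9 animals, for 16 gene lists (number of genes in brackets), with the list median as a bar. Fat lists are red and lists of other cells grey. Fatty acid oxidation and brown fat have the highest medians at 1.25 and 1.37. The brown fat median rests on 4 genes, of which KCNK3 was counted only because unstable animal 4 passed the limit. The B and T cell lists lie near 0 at -0.13 and -0.11.

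The genes whose pattern was most like the mean of the 10 were found by Pearson's r over 10 arrays, with the mean's own genes left out. LIPE led at 0.964, followed by ACADVL, the very-long-chain acyl-CoA dehydrogenase, at 0.960, HADHSC, the older symbol of the short-chain hydroxyacyl-CoA dehydrogenase, at 0.959, the amino acid transporter SLC36A2 at 0.957 and the transaminase GPT2 at 0.953. PNPLA2, FASN, DGAT2, CCNH and KCNK3 had 0.934 to 0.947. CCNH, a cyclin of the general transcription machinery, stood at 8.49 in unstable animal 4, against 7.72 to 8.15, and GPT2 at 9.72, against 6.65 to 7.41 with a median of 6.83 that was under the background limit. Since unstable animal 4 had by far the highest mean of the 10 genes, a choice by this r favours genes that are high there. Over the 9 arrays without it the leading genes were EDN1, the vasoconstrictor endothelin, at 0.938, LIPE at 0.905, DGAT2 at 0.893, ACADVL at 0.886 and HADHSC at 0.869. EDN1 stood at 7.40 in unstable animal 4, inside the 7.08 to 7.47 of the others.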

How the data were processed

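The authors deposited probe intensities that were not normalized between arrays, and a table of log2 values per gene symbol whose arrays share nearly 1 distribution. The submitters' processing notes name GenomeStudio, and the normalization is not given in the sources used here. The deposited log2 table was fitted with limma 3.58.1 in R 4.3.3 (two-sided, unstable against stable, without covariates), and p-values were adjusted by Benjamini-Hochberg over all 18622 genes. Gene rows were paired with probes by matching values within 0.005 log2 units on all arrays; 12721 rows had 1 clear probe, among them the 10 genes. Intensities served as alternatives: quantile scaled, normexp with an offset of 16, and median scaled. Named genes are the 10, up to 4 per list by excess in unstable animal 4 and bright lymphocyte genes, and those most like the mean. The genes and lists were chosen with earlier results of these data known. Same-numbered animals did not deviate together (correlations -0.059 to 0.007). Figures used matplotlib 3.10.9. The fit was tested on simulated data.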

Additional observations from a re-analysis of the deposited data

Results flagged for a closer look

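List means in each set of 5 animals, and the 10 genes in the stable animals only, were searched for a value far from the others by Dixon's test at a critical value of 0.71. The 10 genes were not searched in the unstable animals, since the level of unstable animal 4 had chosen them. Of 43 sets, 7 were picked out. The critical value flags about 1 in 20 by chance, but the count of 7 cannot be read against that rate. Most of the 7 came from lists chosen with the level of unstable animal 4 known, and they are given as a description. Unstable animal 4 was far above the other unstable animals in the list means given next. These were further adipocyte genes (8.55), fatty acid and triglyceride synthesis (8.50), uptake and lipolysis (7.60) and fatty acid oxidation (9.18). Brown fat genes (8.56) and adiponectin receptors with leptin and adiponectin signalling partners (8.15) were the others. These lists were chosen with the level of this animal known, so they are not independent of the choice of the 10. They share genes, CIDEA, LIPE, PNPLA2 and CD36 among them. KCNK3 in the brown fat list and CFD in the adipocyte list were counted only because unstable animal 4 passed the limit. Stable animal 3 was far below the other stable animals for stroma and homing chemokines, at 9.46, with the next at 9.91.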

How the results depend on the processing

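The number of the 10 genes called was 0 under every alternative run, with 10 or 9 arrays, the replicate block included, and 0 with each animal left out (0 to 0). The count over all genes, 0, was 1 with slide as a fixed block (MRPL38) and 1 without the 3 older unstable animals (HSBP1), neither of them among the 10, and 0 with the replicate block. Over 9 arrays it was 1 with age as a covariate (ART3). The excess of unstable animal 4 in the mean of the 10 genes was 1.09, and 1.07 to 1.30 with the intensity table. Of the 10 genes most like that mean, 5 stayed among the first 10 without unstable animal 4. Over 10 arrays FABP4 differed by 1.01 with slide as a block or within slide 1, against 0.26. Without the 3 older unstable animals, a fit of 2 unstable animals that include animal 4, THRSP differed by 2.30, SCD by 0.67, CIDEC by 0.45 and ACACB by 0.84, and with age as a covariate by 1.95, 0.54, 0.37 and 0.73. LPL was at -0.81 with normexp, against -0.43. Over 9 arrays, directions turned with the setting. With the replicate block the values were -0.01 for ADIPOQ, 0.07 for FABP4, 0.13 for LEP and 0.04 for ACACB. With median scaling they were 0.05 for FABP4, 0.11 for LEP, 0.03 for THRSP and 0.06 for ACACB. With slide as a block they were 1.01 for FABP4, 0.22 for LEP, 0.15 for CIDEC, 0.91 for THRSP, 0.04 for SCD and 0.60 for ACACB. With age as a covariate LEP was at 0.35, FABP4 at -0.60, THRSP at -0.59, ACACB at -0.55 and LPL at -0.07. Only unstable animals 4 and 5 had age labels near those of the stable animals, so the age fits lean on them. Over 9 arrays only unstable animal 5 of these was left. With 1 more animal left out the ranges were -0.02 to 0.04 for ADIPOQ, -0.29 to 0.15 for FABP4, -0.21 to 0.13 for LEP, -0.62 to 0.28 for THRSP and -0.33 to 0.16 for ACACB. The causes were not tested. LPL kept a lower mean in unstable animals under every alternative run. Over 9 arrays this was only -0.07 with age as a covariate and -0.07 with unstable animal 2 also left out. For LPL, unstable animal 2 was under the background limit and unstable animal 4 only just above it. Signal near background limits CIDEC, ADIPOQ, PCK1 and GPD1, and the low values of THRSP and LPL.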
